A study of Mus musculus with 8 samples.

Results

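The 79 genes described here encode the proteins of the cytosolic ribosome in mouse liver. They were chosen by name: every row of the deposited table whose symbol has the form Rpl, Rps or Rplp, a number and at most a few of the letters a, x, y and l, with at least 1 FPKM in at least 2 of 8 libraries. FPKM is the number of sequenced fragments scaled by transcript length and by library size, so it is a level per length. Of 47719 rows 82 matched, 79 passed, and these are 79 of the 12340 genes tested. Rpl3l, Rpl39l and Rpl10l did not pass, the highest value among them being 0.21 FPKM in any library. The gene nearest above the limit was Rpl6l, at 0.58 to 2.47 FPKM in the 4 day 2 libraries and at most 0.76 FPKM in the others. It passed through day 2 replicates 1 and 2 alone, so its place above control there follows from the filter. The genes comprise 48 of the large and 31 of the small subunit, and 77 are annotated as protein-coding.

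RNA was sequenced from the liver of wild type C57BL/6 mice. The 3 groups were normal control mice aged 10 weeks (2 libraries), and mice at day 2 (4 libraries) and day 14 (2 libraries) after extended hepatectomy, in which most of the liver is cut away. The series concerns encapsulated organoids of proliferating human hepatocytes given against liver failure, and its design text names EMC as the treated control at day 2 and eLO as the treatment at both days. No label places a day 2 library with EMC or eLO, day 14 is eLO alone by that text, and that text names no group with surgery and no treatment. Time, surgery and treatment therefore cannot be told apart here. What the letters EMC stand for is not given in the sources used here. Nor do the labels say that each library is a different mouse, so every p-value below rests on the scatter among libraries, which may be technical. The title of day 2 replicate 1 reads d1 where its age label gives day 2, and that of day 2 replicate 3 adds TVR, which is not explained. The column header of day 2 replicate 3 also carries PHX and further numbers that no other header has, likewise unexplained. No age in weeks is given for the operated mice. The comparisons ask how the remnant liver differed from intact liver early and late.

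A ribosome is built from a small subunit, which reads the message, and a large subunit, which joins amino acids, and each holds 1 copy of nearly every one of its proteins. Ribosomal protein messages are among the most abundant and most evenly expressed in a cell, and many start with a cytosine followed by a run of pyrimidines, the 5′ terminal oligopyrimidine (TOP) motif, through which the mTORC1 kinase controls their translation. In liver that regrows after hepatectomy ribosomal protein S6 becomes heavily phosphorylated, and mouse liver deleted for Rps6 fails to re-enter the cell cycle after the operation.

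The transcription starts of 57 of the 79 genes were found by symbol among RefSeq promoters (GRCm38.p6), with 68 starts in all. A start at C followed without a break by pyrimidines, at least 5 in a row in total, was found in 13 of the 57 genes (22.8%), beside 3.05% of the 9056 tested genes in the same table. The start base alone was C in 33.3% against 17.9%. To set starts beside the values that follow, 30 bases are printed, from 15 before the start, for the 5 genes of highest and then the 5 of lowest day 14 change among the 57. Rpl15, which has the longest run among starts at C, and Rps6, the substrate of S6 kinase, come last. Any pyrimidine run that begins at the start is in capitals.
Rpl28, chr7:4792950-4792979, plus strand: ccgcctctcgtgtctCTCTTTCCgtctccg
Rpl38, chr11:114668565-114668594, plus strand: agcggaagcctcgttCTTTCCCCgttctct
Rpl27, chr11:101442230-101442259, plus strand: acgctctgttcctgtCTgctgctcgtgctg
Rpl35, chr2:39005117-39005146, minus strand: cggccccgccctttcCTCTTTCTCTCgaac
Rpl37, chr15:5116598-5116627, plus strand: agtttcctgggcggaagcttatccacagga
Rps3, chr7:99483695-99483724, minus strand: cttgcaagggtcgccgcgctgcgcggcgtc
Rpl5, chr5:107900513-107900542, plus strand: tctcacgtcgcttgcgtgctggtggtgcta
Rps4x, chrX:102189377-102189406, minus strand: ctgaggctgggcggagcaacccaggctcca
Rpl9, chr5:65391417-65391446, minus strand: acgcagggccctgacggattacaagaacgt
Rpl4, chr9:64173372-64173401, plus strand: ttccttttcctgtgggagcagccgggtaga
Rpl15, chr14:18270972-18271001, minus strand: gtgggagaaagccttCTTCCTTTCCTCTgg
Rps6, chr4:86857353-86857382, minus strand: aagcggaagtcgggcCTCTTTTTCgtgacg
Of the 5 highest Rpl28, Rpl38 and Rpl35 have the run, Rpl27 has only 2 pyrimidines and Rpl37 starts at A, whereas the 5 lowest start at G. Rpl15, with 13 pyrimidines, had a log2 change of only 0.013 from control at day 14, so a long run was also found in a gene that was not high then. A C with 4 further pyrimidines, starting within 10 bases of the annotated start, was found in 61.4% of the 57 genes and 37.3% of tested genes. In the 300 bases from 250 before to 50 after the start, CCGGAAG, a site of ETS family factors, was found on either strand in 40.4% of these genes and 20.6% of tested genes, and AAGATGGC, a site of YY1, in 8.77% and 5.42%. These are matches of letters to annotated starts, which may lie some bases from the start used in liver.

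Total FPKM ranged from 686332 to 1298005 per library and 10796 to 11197 genes reached 1 FPKM. Absolute depth was unknown. The depth relative to control replicate 1, from the most common ratio of FPKM values under 0.1, was 0.99 in control replicate 2, 0.84 to 1.14 at day 2, and 0.64 and 0.91 in day 14 replicates 1 and 2. Mitochondrially encoded genes held 8.09% and 7.72% of total FPKM in control liver, 7.02% to 20.5% at day 2, and 43.3% and 17.6% in day 14 replicates 1 and 2, so the first day 14 library stood apart. All 10 hepatocyte markers were tested and summed to 49260 and 52380 FPKM in control liver, 38140 to 64650 FPKM at day 2 and 55960 and 61690 FPKM at day 14. Of these 2 fell at day 2 (median -0.42), Cyp2e1 by 2.82 and Cps1 by 1.73 on the log2 scale, and none was called at day 14. Neutrophil markers, of which 4 of 8 were tested and 3 rose at day 2, summed to 4.21 and 8.05 FPKM in control liver, 32.2 to 322 FPKM at day 2 and 16.1 and 71.1 FPKM at day 14. Erythroid markers, of which 5 of 7 were tested, with 1 lower at day 2 and 2 higher at day 14, summed to 351 to 427 FPKM in control liver, 371 to 1707 FPKM at day 2 and 1266 and 2768 FPKM at day 14. B cell markers (3 of 7 tested, 2 higher at day 14) summed to 4.53 to 18.02 FPKM in control and day 2 libraries and 56.6 and 58.8 FPKM at day 14. Monocyte and macrophage markers (7 tested, 1 higher and 2 lower at day 2, 3 lower at day 14) summed to 37.3 to 75.1 FPKM in control and day 2 libraries and 24.1 and 25.1 FPKM at day 14. Kupffer cell markers (5 tested, 1 higher at day 2, 1 lower at day 14) had sums of 73.9 to 143 FPKM and 46.9 and 47.7 FPKM in the same order, and sinusoidal endothelial markers (6 tested, 1 lower at day 2, 2 lower at day 14) 45.8 to 81.5 FPKM and 40.4 and 50.5 FPKM. No T and NK cell, stellate cell or cholangiocyte marker was called against control, and no marker of any list was at 0 in all libraries. The part of these cells, of depth and of mitochondrial RNA in the results below was not tested. In bulk tissue fewer cells of a type and less RNA per cell cannot be told apart.

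In normal liver the 2 control libraries gave similar levels for most ribosomal protein genes. Of the 79, 75 averaged over 100 FPKM, and the median was 295 FPKM. Leaving out Rpl6l and Rps4l, which GENCODE M21 annotates as processed pseudogenes, the other 77 genes ranged from 57.9 FPKM (Rps20) to 951 FPKM (Rplp1) in single control libraries. The median absolute log2 ratio between the 2 controls was 0.045, and among genes over 100 FPKM it did not exceed 0.23. Rplp1, Rpl41 and Rps15 had the highest means over the 8 libraries, and Rpl6l, Rps4l and Rps20 the lowest.

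At day 2 after hepatectomy most ribosomal protein messages rose. Of the 79 genes 66 rose against normal control and 0 fell (limma, Benjamini-Hochberg adjusted p under 0.05 over all genes tested), where 9.72% of all genes tested rose and 11.5% fell. At an unadjusted p under 0.05 74 were higher and 0 lower, but the share of all genes tested at that threshold is not given here. The median log2 change was 1.27, or 2.41-fold, on the log2(FPKM + 1) scale, and 0.054 over all genes tested. With a trend on transcript length and GC content removed from each library, 19 of 77 protein-coding genes of the set were called higher, beside 5.32% of 11318 genes, and the median was 0.64. In 78 of 79 genes all 4 day 2 libraries exceeded both controls, which held for 26.1% of tested genes. The exception was Rps4l, whose day 2 replicate 3 at 18.9 FPKM lay between the controls at 13.1 and 21.2 FPKM.

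**Figure D1:**
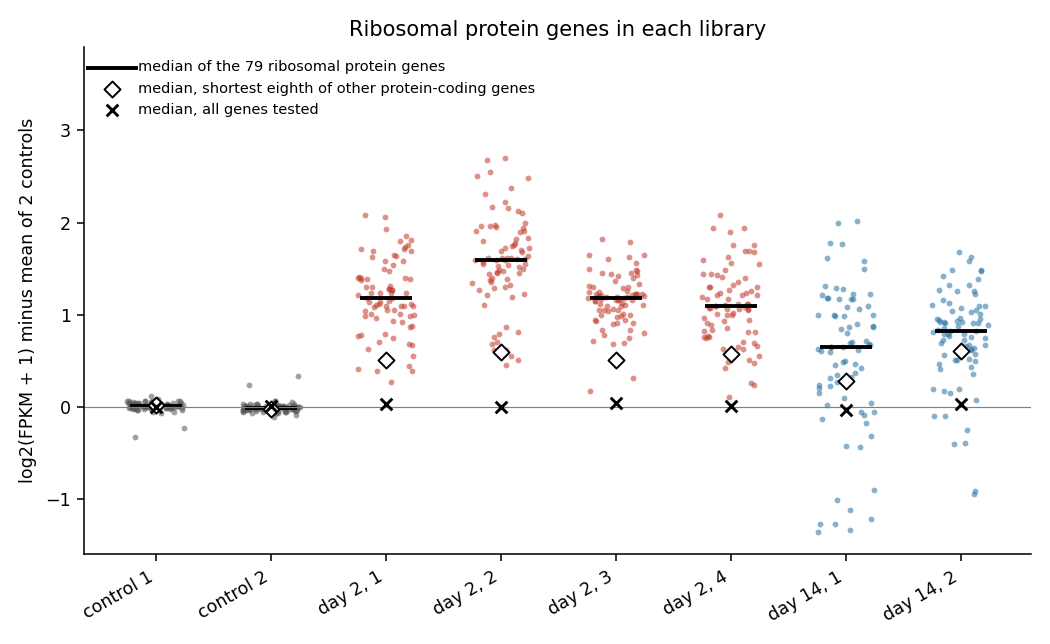
Each point is 1 of the 79 ribosomal protein genes in 1 library, as log2(FPKM + 1) minus the mean of the 2 controls; bars, diamonds and crosses give medians of the 79 genes, of the other genes in the shortest eighth of protein-coding transcripts, and of all genes tested. The medians of the 79 genes were 1.18, 1.60, 1.18 and 1.09 in the 4 day 2 libraries and 0.64 and 0.83 in the 2 day 14 libraries, all above the diamonds.

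The rise differed from gene to gene. Rps16, whose tail reaches the decoding site of the small subunit (chr7:28350652-28353155, 5 exons, GRCm38), stood at 206 and 197 FPKM in control liver, 853, 1318, 569.5 and 777 FPKM in day 2 replicates 1 to 4, and 456 and 504 FPKM at day 14. All 6 hepatectomy libraries lay above both controls and replicate 2 of day 2 was the highest. Its log2 change at day 2 was 2.05 ± 0.34 (SE; limma adjusted p = 0.00739), the largest of the 79. Rps29, a small zinc-binding protein of the small subunit head, stood at 336 and 327 FPKM, then at 1198, 1643, 1145 and 1406 FPKM, and at 824 and 832 FPKM at day 14 (day 2 change 2.00 ± 0.25, limma adjusted p = 0.00333, the lowest p of the 79). The 3 groups of Rps29 did not overlap.

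Rpl41 encodes the smallest ribosomal protein, of 25 residues. Control libraries gave 787 and 790.0 FPKM for it, and the day 2 libraries 2771, 4400, 2783 and 2939 FPKM, in each case the highest of the 79 genes at day 2. That made a log2 change of 2.00 ± 0.37 (limma adjusted p = 0.0110). Rplp2, which with Rplp1 forms the flexible stalk that recruits elongation factors, stood at 184 and 189.8 FPKM and at 779, 1199, 501 and 635 FPKM (change 1.98 ± 0.36, adjusted p = 0.0103).

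The 4 genes of smallest change at day 2 all encode large subunit proteins and did not pass the test. Rpl5, which with Rpl11 carries 5S ribosomal RNA into the large subunit and can bind the p53 regulator Mdm2, measured 235 and 222 FPKM in control liver, and 305, 335, 371 and 246 FPKM at day 2. The groups did not overlap, yet the log2 change was 0.44 ± 0.25 (limma adjusted p = 0.231). For Rpl7 it was 0.50 ± 0.27 (adjusted p = 0.211), for Rpl10, which is joined late in assembly, 0.54 ± 0.27 (adjusted p = 0.176), and for Rpl4, which lines the exit tunnel, 0.62 ± 0.38 (adjusted p = 0.264). The other genes that did not pass at day 2 were Rpl15, Rpl23a, Rpl35a, Rps2, Rps3, Rps27, Rps27l, Rpl6l and Rps4l, with log2 changes of 0.69 to 1.12 and adjusted p of 0.0502 to 0.174.

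**Figure D2:**
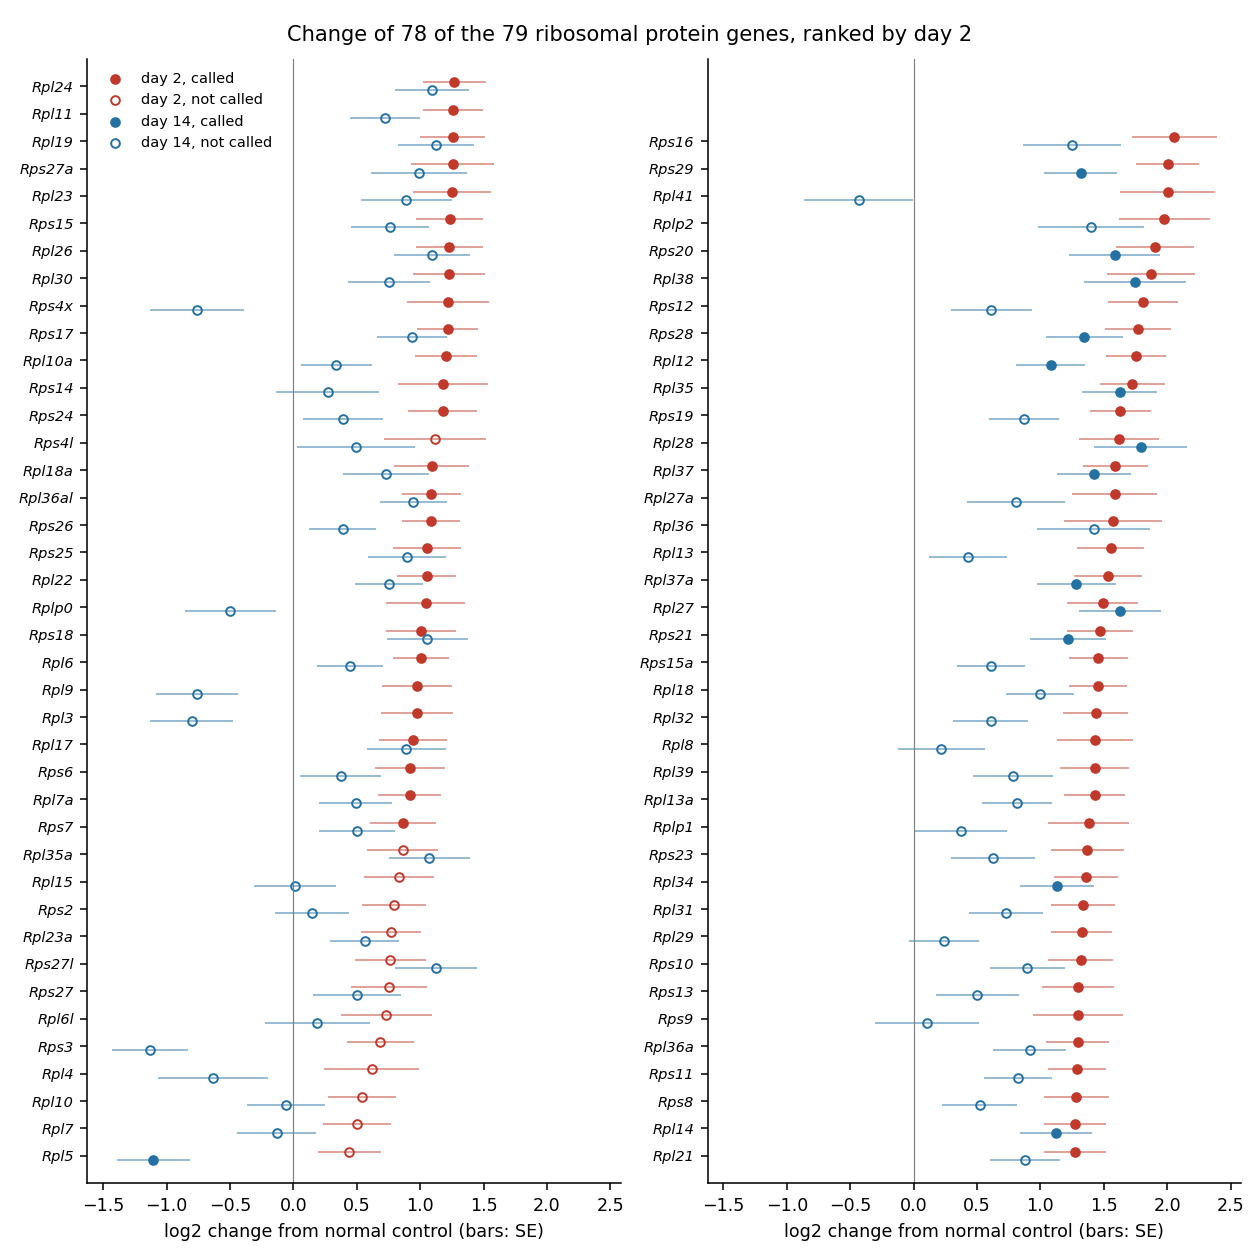
Fitted log2 change from normal control (x axis, with SE bars) of 78 of the 79 genes at day 2 and at day 14, ranked by day 2 from bottom left to top right; filled points passed the test. The day 2 points all lie above 0, between 0.44 (Rpl5) and 2.05 (Rps16), and the day 14 points between -1.13 (Rps3) and 1.79 (Rpl28).

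Both subunits shared the day 2 rise: 40 of 48 large subunit genes and 26 of 31 small subunit genes rose, with median log2 changes of 1.27 and 1.25. The ratio of summed FPKM of large to small subunit genes was 1.46 and 1.45 in the controls, 1.49, 1.498, 1.49 and 1.45 at day 2, and 1.58 and 1.46 at day 14, so that it was highest in day 14 replicate 1. As a share of total FPKM the 79 genes held 3.53% ± 0.098 (SD, n = 2) in control, 7.51% ± 0.56 (n = 4) at day 2 and 3.60% ± 0.86 (n = 2) at day 14. With mitochondrially encoded genes left out of the total the shares were 3.91% and 3.75% in the controls, 8.77%, 8.77%, 7.65% and 9.22% at day 2, and 5.29% and 5.11% at day 14, so that the day 14 libraries lay between the other groups.

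Day 2 replicate 2 held the highest of the 4 day 2 values in 66 of the 79 genes, and replicate 3 in 11. The latter include Rpl5, Rpl3, Rpl4 and Rps3. With any 1 day 2 library left out 50 to 61 genes were called higher (6.28% to 10.6% of all genes), at most 2 of them outside the 66. Leaving out control replicate 1 or 2 gave medians of 1.29 and 1.26. The calls were then lost in these genes, as were nearly all calls over the genes tested. The count of calls therefore rests on having both controls.

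At day 14 some genes were above control and a few below it. A rise against normal control was called in 13 (5.21% of all genes tested rose) and a fall in 1, Rpl5 (4.58% of all genes fell), with a median log2 change of 0.75 against -0.0021 over all genes tested. Both day 14 libraries exceeded both controls in 62 of the 79 genes (35.3% of tested genes) and lay below both in 6 (35.7% of tested genes). The standard deviation of the log2 differences across the 79 genes was 0.79 and 0.52 in day 14 replicates 1 and 2, beside 0.29 to 0.51 in the day 2 libraries. With quantile scaling 9 rose (4.92% of all genes) and 4 fell (5.62%), and 10 of these 13 calls were among the 14. With the length and GC trend removed 1 rose (1.12% of all genes) and the median was 0.16. Without control replicate 1, control replicate 2 or day 14 replicate 1 the medians were 0.77, 0.75 and 0.83. The 13 calls were then lost, as were nearly all calls over the genes tested. Fewer of the 13 were also called without day 14 replicate 2. Without day 2 replicates 1 and 4 there were 1 and 4 calls (2.06% and 3.1% of all genes rose). Without day 2 replicate 2 there were 29, where 9.03% of all genes rose. This comparison shares its 2 control libraries with that of day 2.

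The highest day 14 changes were in large subunit genes. Rpl28, a protein that bacterial ribosomes lack, stood at 268 and 253 FPKM in control liver, 856, 1161, 597 and 692 FPKM at day 2, and 1042 and 782 FPKM at day 14. Day 14 overlapped day 2 and lay above control, with a log2 change of 1.79 ± 0.37 (SE; limma adjusted p = 0.0327). Rpl38, which is known for its role in translation of Hox messages in the embryo, stood at 360 and 353 FPKM, at 1244, 2092, 975 and 1155 FPKM, and at 1444 and 997 FPKM at day 14 (change 1.75 ± 0.40, adjusted p = 0.0381). Rpl27 changed by 1.63 ± 0.33 (adjusted p = 0.0313) and Rpl35, at the mouth of the exit tunnel, by 1.62 ± 0.30 (adjusted p = 0.0274). The other 9 genes that rose at day 14 were Rpl12, Rpl14, Rpl34, Rpl37, Rpl37a, Rps20, Rps21, Rps28 and Rps29.

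The lowest day 14 changes were in a few genes of both subunits. Rps3, which lies at the messenger entry channel (chr7:99477896-99483738, 7 exons, GRCm38), stood at 243 and 247 FPKM in control liver, 392.5, 337, 512 and 359 FPKM at day 2, and 95.3 and 130.0 FPKM at day 14. The 3 groups did not overlap, with day 2 the highest and day 14 the lowest. Its change from control was -1.13 ± 0.30 (limma adjusted p = 0.0523), just short of the threshold. Rpl5 stood at 94.4 and 118 FPKM at day 14 (change -1.11 ± 0.29, adjusted p = 0.0490) and Rpl3, near the peptidyl transferase centre, at 84.2 and 150.4 FPKM, beside 205 and 189 FPKM in control (change -0.80 ± 0.33, adjusted p = 0.144). For Rps4x, on the X chromosome, the change was -0.76 ± 0.37 (adjusted p = 0.213). The call of Rpl5 was kept without day 2 replicate 2 and lost without any other single library. It was also lost with a pseudocount of 0.1, with no filter and with the length trends removed.

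**Figure D3:**
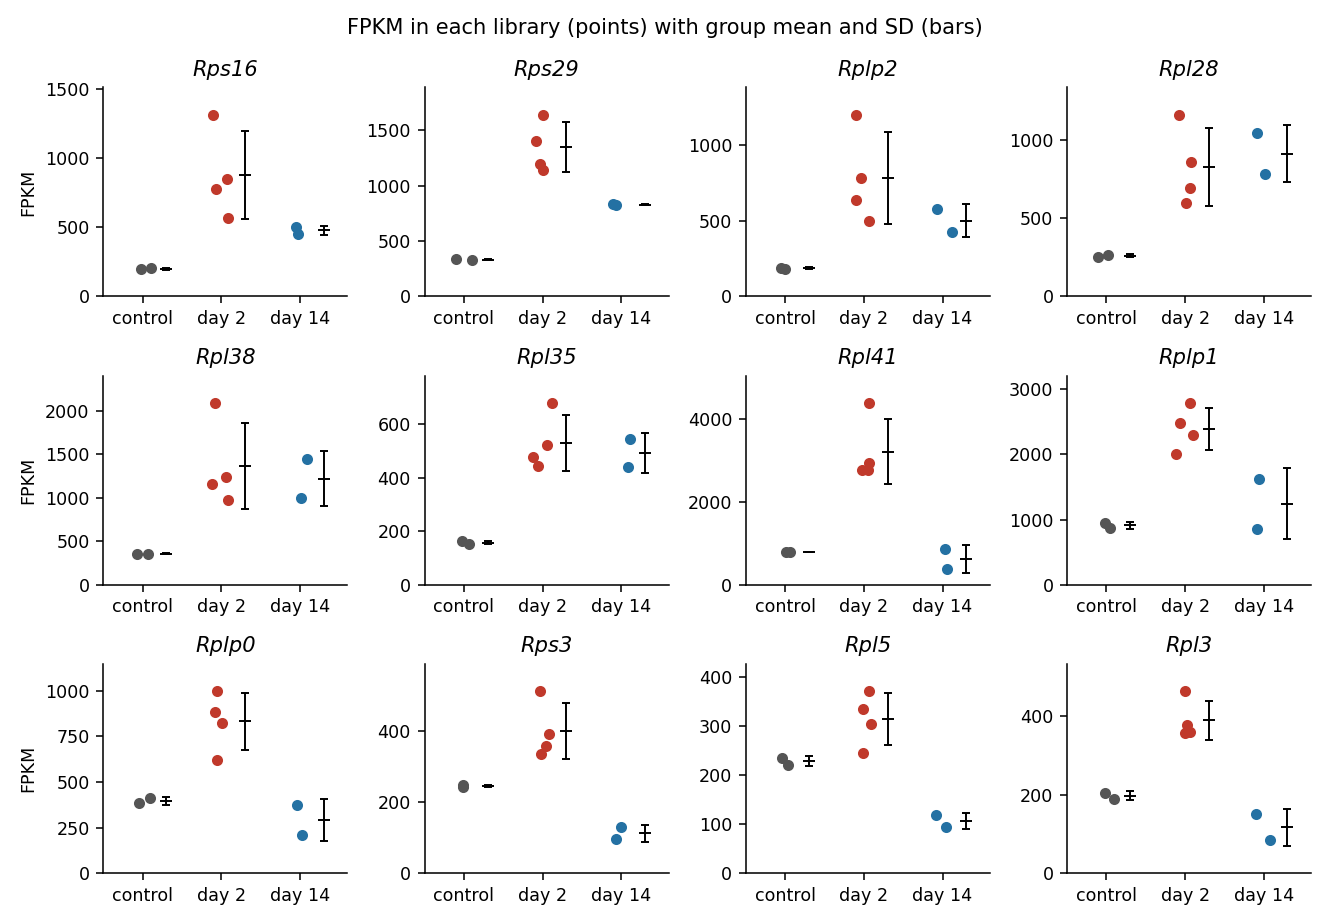
FPKM of 12 ribosomal protein genes in each library (points), with the mean and SD of each group beside them; each y axis starts at 0. Rps16 to Rpl35 stayed above control in both day 14 libraries, whereas both day 14 libraries of Rps3, Rpl5 and Rpl3 lie below the controls.

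Between day 2 and day 14 no gene rose and 14 fell, among them Rpl3, Rpl5, Rpl8, Rpl9, Rpl10a, Rpl13, Rpl29, Rpl41, Rplp0, Rps3, Rps4x, Rps12 and Rps15a. Among all genes tested 9.09% rose and 7.03% fell. By unadjusted p under 0.05, 36 were lower and 0 higher, again without a share of all genes tested at that threshold. The median log2 change was -0.55 (all genes -0.029), and both day 14 libraries lay below all day 2 libraries in 47 of the 79 genes, as in 20.4% of tested genes. The largest change was in Rpl41, at 390.0 and 872 FPKM at day 14, with -2.44 ± 0.37 (limma adjusted p = 0.00797) against day 2. It was followed by Rps4x at -1.98 ± 0.32 (adjusted p = 0.00930), Rps3 at -1.82 ± 0.26 (adjusted p = 0.00680) and Rpl3 at -1.77 ± 0.28 (adjusted p = 0.00879). At the other end Rps27l, a paralog of Rps27 that p53 induces, stood at 260 and 264 FPKM in control, 315 to 528 FPKM at day 2, and 521 and 629 FPKM at day 14 (change from day 2 of 0.36 ± 0.28, adjusted p = 0.395). Without day 14 replicate 1, the library with 43.3% mitochondrially encoded FPKM, the median was -0.43. The 14 calls were then lost, as were nearly all calls over the genes tested. Without either control the median stayed at -0.55, with fewer calls here and over all genes tested. Without day 2 replicate 1 there were 8 falls (3.86% of all genes).

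The 3 proteins of the acidic stalk all rose at day 2. With the length trends removed only Rplp2 of these was still called. The call of Rplp0 was also lost with quantile scaling and without day 2 replicate 1, 2 or 3. Rplp0, the base of the stalk, stood at 383 and 413 FPKM in control, 623 to 997 FPKM at day 2 and 212 and 372 FPKM at day 14, and it fell between the days by 1.54 on the log2 scale (SE 0.31, limma adjusted p = 0.0173). Rplp1 stood at 951 and 872 FPKM, 2007 to 2786 FPKM, and 855 and 1624 FPKM, its 2 day 14 libraries lying on either side of the controls. Rplp2 remained above control in both day 14 libraries at 422 and 578 FPKM (change 1.40 ± 0.42, adjusted p = 0.0693). Of the 5S pair, Rpl11 rose at day 2 (1.26 ± 0.24, adjusted p = 0.0115) and Rpl5 did not pass, and at day 14 Rpl11 stood at 587 and 678 FPKM, above its controls at 398 and 366 FPKM, whereas Rpl5 was below its own. Whether the members of either group differed from each other in their change was not tested.

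Rps6, the substrate of S6 kinase, stood at 393 and 410.3 FPKM in control, 849.6, 936, 754 and 560.3 FPKM at day 2, and 469 and 576.5 FPKM at day 14. Every hepatectomy library was above both controls, and the day 2 change passed the test (0.92 ± 0.28, limma adjusted p = 0.0482) whereas the day 14 change did not (0.37 ± 0.32, adjusted p = 0.480). That day 2 call of Rps6 was lost with quantile scaling, with the length trends removed and without day 2 replicate 1, 2 or 3. Rps27a, made as a fusion with ubiquitin, rose at day 2 by 1.26 ± 0.33 (adjusted p = 0.0321), and Rpl22 by 1.05 ± 0.23 (adjusted p = 0.0191). Among paralogs, Rpl36a and Rpl36al rose at day 2 by 1.29 ± 0.25 and 1.09 ± 0.23, while Rps27 and Rps27l did not pass, at 0.75 ± 0.30 and 0.77 ± 0.28. These values are from the same limma fit. Rpl39 rose by 1.43 ± 0.27 (adjusted p = 0.0116) and its paralog Rpl39l did not exceed 0.21 FPKM.

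The genes have short transcripts, and short transcripts as a class were higher in the hepatectomy libraries. The median representative transcript of the 79 genes was 791 bases, against 2828 bases for all protein-coding genes tested, and 65 of them lay in the shortest eighth. The other genes of that eighth had median log2 differences from control of 0.51, 0.60, 0.51 and 0.58 in the 4 day 2 libraries and 0.28 and 0.60 in the 2 day 14 libraries. The 65 ribosomal protein genes of that eighth had 1.24, 1.62, 1.19, 1.11, 0.69 and 0.91 in the same order, the higher value in all 6 libraries. Of the 19 genes that rose at day 2 with the length and GC trend removed, 18 were also called without that step. Among the 18, Rps15a, Rps20 and Rpl22 are listed at 5179, 3706 and 2051 bases for coding lengths of 390, 357 and 384. The removed trend used these listed lengths. At day 14 Rps20 alone rose (1.12% of genes), whose representative transcript is listed at 3706 bases for a coding length of 357, with a median of 0.16, and between the days 18 fell (8.79% of genes), among them the same 14 as before, with a median of -0.49. This step thus moved the median between the days from -0.55 to -0.49, that at day 2 from 1.27 to 0.64, and that at day 14 from 0.75 to 0.16.

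Within the 79 genes coding length went with the change. Over the 77 with a coding sequence, which all share the same libraries, coding length and log2 change gave Pearson's r = -0.55 and Spearman's rho = -0.48 at day 2, and r = -0.65 and rho = -0.60 at day 14. Listed transcript length gave weaker values, r = -0.066 and rho = -0.22 at day 2, and r = -0.17 and rho = -0.30 at day 14. For GC content they were r = 0.36 and rho = 0.37 at day 2, and r = 0.17 and rho = 0.099 at day 14. In 3 groups of 26, 25 and 26 genes by coding length, from short to long, the median changes were 1.44, 1.27 and 0.99 at day 2, 1.01, 0.87 and 0.22 at day 14, and -0.31, -0.47 and -0.79 between the days. Of the 14 genes that fell between the days 10 were in the longest of these groups. Rpl41, with 75 coding bases the shortest, was the clearest exception, with the largest fall of all. With coding length in place of transcript length in the removed trend 29 genes rose at day 2 (5.96% of 11318 genes, median 0.83), all of them called before. At day 14 the only fall called under that trend (3.18% of genes) was in Rpl41, at -2.45 ± 0.41 (limma adjusted p = 0.0294), beside -0.43 as deposited, and Rpl5 was at -0.87 (adjusted p = 0.103).

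**Figure D4:**
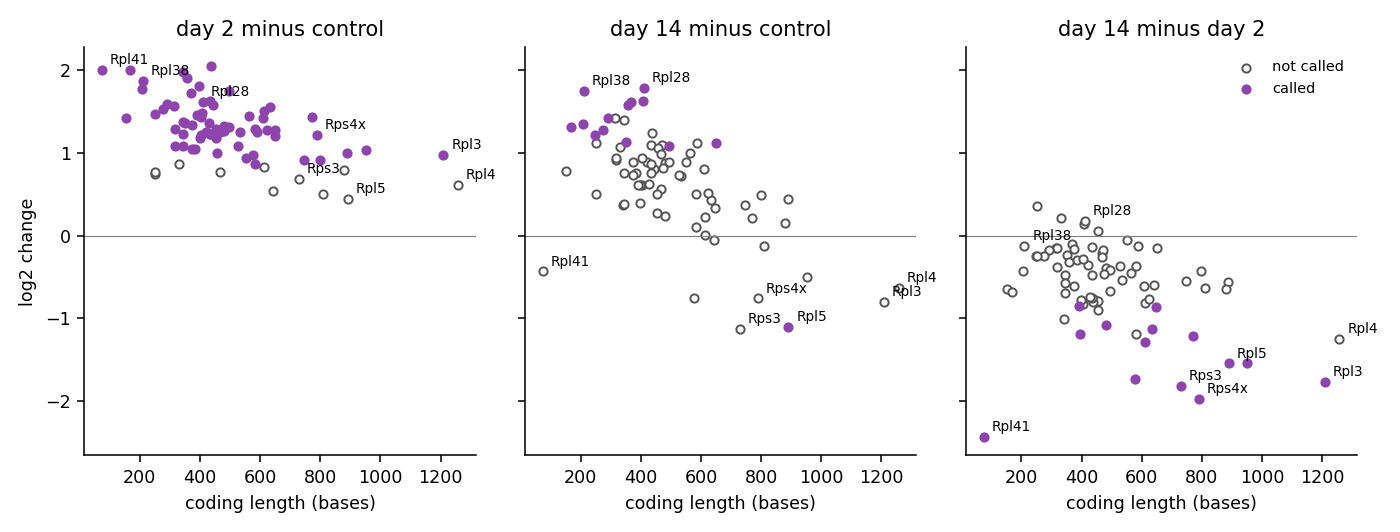
Fitted log2 change of the 77 protein-coding ribosomal protein genes (y axis) against coding length in bases (x axis) in 3 comparisons; filled points passed the test. Long genes such as Rpl3 and Rps3 lie low at day 14, and Rpl41, at 75 bases, lies apart from the other short genes there.

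The genes share features of position as well. They lie on 19 chromosomes, with 14 on chromosome 7 and 4 on X, and 28 of the 79 (35.4%) contain annotated small nucleolar RNA genes, 53 in all, against 1.82% of genes tested. Such RNAs guide the modification of ribosomal RNA and are cut from introns. The 13 genes with the pyrimidine run at the start had median log2 changes of 1.32 at day 2 and 1.07 at day 14, and the 44 without one 1.26 and 0.74, but the former also had a shorter median coding length (390 against 441 bases), and the difference was not tested. Near-identical copies, 307 other annotated genes or pseudogenes matching 49 of the 79, held 0.42% to 0.55% of the summed FPKM, and Rpl17 and Rps19 alone had copies above 5% in any library. Since reads may be divided between such copies, levels of these genes are somewhat uncertain.

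Other ribosomal proteins and paralogs have symbols outside the naming form. Of 6 tested 3 rose at day 2, with a median log2 change of 0.95, among them Rpsa by 1.51 ± 0.27 (limma adjusted p = 0.00987) and Fau, made as a fusion with a ubiquitin-like protein, by 1.40 ± 0.39 (adjusted p = 0.0367). Rpsa stood at 241 FPKM in both controls, 576 to 938 FPKM at day 2 and 271 and 343 FPKM at day 14. The 77 mitochondrial ribosomal proteins, encoded in the nucleus for the ribosome of mitochondria, had a median log2 change of 0.63 at day 2, with 21 higher and 0 lower, and 0.36 at day 14, with 9 higher and 1 lower. Mrpl52, of the large mitochondrial subunit, stood at 114 and 109 FPKM in control, 336 to 485 FPKM at day 2 and 281 and 271 FPKM at day 14. Nuclear genes of oxidative phosphorylation, with a median transcript of 809 bases, had medians of 0.52 at day 2 (9 of 77 higher, 1 lower) and 0.63 at day 14 (17 higher, 1 lower). Uqcrq, a small subunit of complex III, rose at both days, by 1.36 ± 0.37 (limma adjusted p = 0.0344) and 1.92 ± 0.42 (adjusted p = 0.0346). Between day 2 and day 14 6 mitochondrial ribosomal protein genes fell and 1 rose, and 5 oxidative phosphorylation genes rose and none fell.

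Factors that work with the ribosome had lower medians at day 2 than the 79 genes, a difference that was not tested. Their transcripts were also longer, and the part of length in this was not tested. Median lengths were 2312 bases for elongation and release factors, 1899 for eIF3 and 2454.5 for other initiation factors. Of 9 tested elongation and release factors 3 rose at day 2 (median 0.69), led by Eef1d, an exchange factor of eEF1A, at 74.7 and 71.3 FPKM in control, 190.0 to 237 FPKM at day 2 and 156 and 178 FPKM at day 14. Eef1a1, which brings aminoacyl-tRNA to the ribosome and has a TOP start, stood at 2968 and 3144 FPKM in control, 1982 to 2980 FPKM at day 2 and 748 and 1912 FPKM at day 14 (day 2 change -0.26 ± 0.39, adjusted p = 0.645). Of 13 eIF3 subunits 4 rose and 1 fell at day 2 (median 0.47), and 4 fell from day 2 to day 14. Of 22 other initiation factors 1 rose and 3 fell at day 2. The riser was Eif6, which holds free large subunits apart from small ones, at 30.5 and 29.6 FPKM in control, 226, 254, 113 and 107 FPKM at day 2, and 8.35 and 21.0 FPKM at day 14. Eif2s3x, a subunit of eIF2, fell at both days, from 22.3 and 25.2 FPKM to 3.28 to 7.32 FPKM at day 2 and 2.15 and 2.79 FPKM at day 14. The day 2 change of Eif6 was 2.40 ± 0.47 (limma adjusted p = 0.0123), and the change from day 2 to day 14 was -3.51 ± 0.47 (adjusted p = 0.00554).

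Among 16 other messages known for a TOP start 3 rose and 1 fell at day 2 (median 0.44). Gas5, a non-coding host of small nucleolar RNAs with a TOP start, stood at 92.0 and 83.0 FPKM in control, 96.1 to 121 FPKM at day 2 and 254 and 239.5 FPKM at day 14, and rose at day 14 by 1.49 ± 0.24 (limma adjusted p = 0.0219). Of 17 genes of the mTORC1 and S6 kinase pathway 1 rose and 2 fell at day 2, and 1 rose and 2 fell at day 14. Eif4ebp1 and Eif4ebp2 encode inhibitors of translation that bind eIF4E, and they moved in opposite directions at day 2. Eif4ebp1 stood at 43.5 and 40.8 FPKM in control, 76.6 to 139 FPKM at day 2 and 31.7 and 56.6 FPKM at day 14, a rise of 1.30 ± 0.31 at day 2 (limma adjusted p = 0.0251). Eif4ebp2 stood at 40.8 and 45.2 FPKM in control, 7.33 to 20.1 FPKM at day 2 and 2.07 and 5.77 FPKM at day 14, a change of -1.81 ± 0.42 at day 2 (adjusted p = 0.0214). Pdcd4, which blocks eIF4A and is degraded on S6 kinase signalling, changed by -1.95 ± 0.31 (adjusted p = 0.00667). Of 11 chaperones of ribosomal proteins and factors of the 5S particle 1, Grwd1, rose at day 2, and of 14 proteasome core subunits, another large complex, 3 rose (median 0.51).

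**Figure D5:**
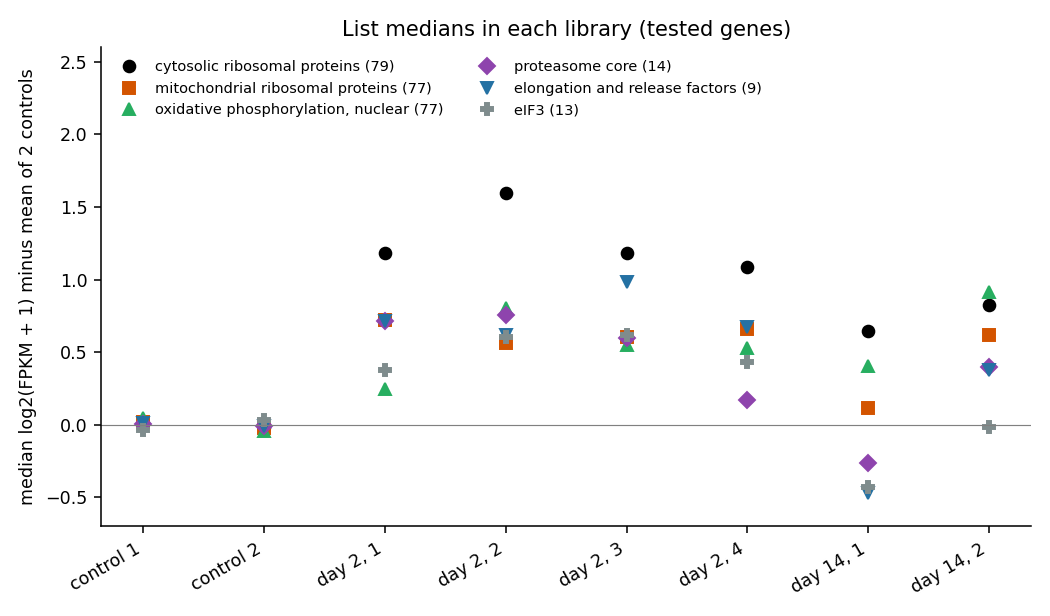
Median log2(FPKM + 1) minus the mean of the 2 controls (y axis) in each library for the 79 ribosomal protein genes and 5 other lists, with the number of genes tested in brackets. The ribosomal protein median is the highest of the 6 in every day 2 library, at 1.09 to 1.60, and in day 14 replicate 2 it is exceeded by oxidative phosphorylation at 0.92.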

How the data were processed

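The deposited table gives FPKM per gene, and its scaling between libraries is not given in the sources used here. Tools named in the submitters' processing notes are Cufflinks 2.2.1, HISAT2 2.10, DESeq2 and HTSeq, beside the builds GRCm38 and mm9, in no stated role. Libraries were grouped by label. The 12340 genes that reached 1 FPKM in 2 or more libraries entered limma 3.58.1 (R 4.3.3) as log2(FPKM + 1), in 3 groups with trended variance and 5 residual plus 3.23 prior degrees of freedom. The threshold was a Benjamini-Hochberg adjusted p of 0.05. The pseudocount understates changes of low genes. Coordinates, lengths and small nucleolar RNAs came from GENCODE M21 (GRCm38), matched by identifier, copies from BLAST+ 2.17.0 at 95% identity over at least 50% of the transcript. The method was tested on simulated data. Genes named were, per comparison, the 4 highest and 4 lowest changes, the 3 highest and 3 lowest levels, 16 set genes and at most 1 gene per list. Genes, lists and alternatives were chosen with earlier results of these data known. Alternatives covered the pseudocount, filter, scaling, groups fitted, variance model, length and GC trend, copies and single libraries. Genes named beyond that rule (Rps20, Rps15a, Eef1a1, Fau, Eif4ebp1, Cyp2e1, Cps1, Rpl15 and lists of called genes) were picked after their values were seen. Some genes are not reported here by name. Figures used matplotlib 3.10.9.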

Additional observations from a re-analysis of the deposited data

Results flagged for a closer look

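Among 58 sets of values from the 4 day 2 libraries, 8 had 1 library far from the other 3, and chance flags about 1 in 20 such sets. The sets share the same 4 libraries and do not vary independently, so no excess over that rate can be read from them. Day 2 replicate 2 was far above the others for Rpl41 (4400 FPKM), Rps15 (1834 FPKM), Rps27a (1155 FPKM) and Rpl35a (1083 FPKM). Day 2 replicate 1 was below the others for Rpl39 (168.7 FPKM) and above them for Gas5 (120.8 FPKM), and day 2 replicate 3 was below them for Rps4l (18.91 FPKM). The share of total FPKM held by the ribosomal protein genes, with the 20 genes of highest mean FPKM left out of the total, was 9.823% in day 2 replicate 3 against 11.3% to 11.46% in the other day 2 libraries.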

How the results depend on the processing

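No paired analysis was possible because the groups share fewer than 2 numbers: the titles of control replicate 2, day 2 replicate 1 and day 14 replicate 1 all carry a 2, with no label saying what it marks, and the replicate numbers of the operated mice used here are names in accession order. Genes called higher at day 2 (66) were 19 with the length and GC trend removed, 19 with that trend fitted on other genes, 29 with coding length, and 0 to 63 with single libraries left out. Of all genes tested 9.72% were higher at day 2, and 5.32%, 5.27% and 5.96% with these trends removed, in the same order. With a single day 2 library left out the share was 6.28% to 10.6%. The lowest count came without a control library, where nearly all calls over the genes tested were lost as well. The day 2 median (1.27) was 1.02 with quantile scaling and 0.64, 0.66 and 0.83 under these trends. Genes called higher at day 14 (13, 5.21%) were 3 with no filter (1.78%) and 31 with only the 2 compared groups (11.5%). Each trend left 1 (1.12%, 1.12% and 2.16%). With a single day 2 library left out they were 1 to 29 (2.06% to 9.03%). They were fewer than 13 with a control or day 14 library left out. Genes called lower at day 14 (1, 4.58%) were 0 with a pseudocount of 0.1 (3.33%), no filter (1.38%) or either transcript length trend (1.5% and 1.49%). With coding length there was 1 (3.18%), Rpl41 in place of Rpl5. There were 2 with median-ratio scaling (4.98%), only the 2 compared groups (10.1%) or no mean-variance trend (4.39%), and 4 with quantile scaling (5.62%). With a single day 2 library left out they were 0 to 2 (1.63% to 7.58%). The call of Rpl5 was lost with a control or day 14 library left out. The day 14 median (0.75) was 0.47 with quantile scaling and 0.16, 0.17 and 0.49 under the trends. Genes called lower from day 2 to day 14 (14, 7.03%) were 29 with quantile scaling (7.65%) and 7 with only the 2 compared groups (3.18%). With a single day 2 library left out they were 8 to 12 (3.86% to 8.7%). The calls were lost without day 14 replicate 1. The shares of total FPKM became 5.11%, 10.98% and 6.58% without the 20 genes of highest mean FPKM and 3.83%, 8.60% and 5.20% without mitochondrially encoded genes in control, at day 2 and at day 14. The cause of these shifts was not tested, and a group left with 1 library is then assumed to vary like the others.

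Changes of sign among named genes concerned values that did not pass the test. With the transcript length trend removed, or fitted on other genes, Rps27 was at -0.32 and -0.24 at day 2 and -0.59 and -0.58 at day 14, Rplp1 at -0.77 and -0.76 and Rps15 at -0.40 and -0.39 at day 14. With the coding length trend removed Rpl39 was at -0.12, Rplp1 at -0.36 and Rps27 at -0.064 at day 14, and Rpl36al at 0.027 between the days. At day 14 Rpl41 ranged from -1.01 to 0.15 without single libraries, Rpl6l was at -0.095 without day 14 replicate 1, and at -0.045 without control replicate 1 and Rplp1 at -0.090 without day 14 replicate 2. Between the days Rpl27 ranged from -0.0082 to 0.28 and Rpl28 from -0.034 to 0.38, the lower values without day 14 replicate 1. A filter at 5 FPKM left out Rpl6l. Adding near-identical copies changed no direction, with 67, 13 and 14 genes called. Unknown absolute depth leaves the precision of low genes such as Rpl6l undetermined.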
